A study of Equus caballus with 21 samples.

Results

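Cytosolic ribosomal protein genes encode the proteins of the large and small ribosomal subunits, and their transcripts were read out here in compartments of the horse endometrium, the inner lining of the uterus. A gene was a member when its RefSeq symbol began with RPL or RPS and a number, or was RPLP0, RPLP1, RPLP2 or RPSA, with the S6 kinases and the mitochondrial ribosomal proteins left out. Of 82 such symbols, 79 had a row in the table of read counts, and 77 were among the 10307 genes of the authors' table of 21 libraries. These 77 members comprised 46 of the large and 31 of the small subunit. RPL3L and RPL10L had a row and no count in any library, and RPL11, RPL36 and RPS15 were not analysed here.

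A ribosome is built from ribosomal RNA and one copy of most ribosomal proteins, so cells make these proteins in balanced amounts. Their messenger RNAs carry a terminal oligopyrimidine (TOP) tract at the start of the transcript, through which growth signals acting by way of mTOR control their translation together. Uterine glands secrete the proteins that feed the horse conceptus before it attaches, luminal epithelium faces the conceptus, and stroma is the connective tissue beneath.

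Warmblood mares were biopsied on day 12 of pregnancy, after insemination, or on day 12 of the oestrous cycle, with ovulation induced by human chorionic gonadotropin in both states. Stroma, glandular epithelium and luminal epithelium were cut from frozen sections by laser capture microdissection, in which a laser lifts chosen cells out of a slide. The libraries were 2 pregnant and 2 cyclic of stroma, 4 pregnant and 4 cyclic of glandular epithelium, and 4 pregnant and 5 cyclic of luminal epithelium. The letters B, C, J, M and U name the mares, the same letter marks the same animal in every compartment and state, and mare J gave 1 cyclic luminal library. The labels name 5 mares whereas the series text speaks of 6.

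The libraries held 136259 to 1467510 gene counts, and RN18S and RN28S, the ribosomal RNA genes, took 0.351% to 67.1% of them. This share fell below 1% in 3 libraries, the pregnant stromal one of mare U, the cyclic glandular one of mare M and the pregnant luminal one of mare M. Summed gland markers lay between 9502 and 73047 CPM (counts scaled to library size) in glandular epithelium, against 1932 to 7263 CPM in luminal epithelium, with FOXA2 listed at 0 throughout. Summed fibroblast markers lay between 5584 and 12865 CPM in stroma, 422 and 1207 CPM in glandular epithelium, and 877 and 7232 CPM in luminal epithelium, so 1 or more pregnant luminal libraries reached stromal levels. In bulk libraries like these, fewer cells of a type and less RNA per cell cannot be told apart.

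The members together took 10.8% ± 6.13 of the counts without ribosomal RNA genes in stroma (SD, n = 4 libraries), 7.47% ± 3.47 in glandular epithelium (n = 8) and 4.33% ± 2.14 in luminal epithelium (n = 9). In stroma the share was 5.13% in the pregnant library of mare M and 17.0% in that of mare U, against 5.94% in the cyclic library of mare B and 15.1% in that of mare M. The 2 libraries of each state thus spanned almost the same range.

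In pregnant glandular epithelium the share was 8.13% in mare B, 4.89% in C, 5.38% in M and 5.87% in U. In cyclic glandular epithelium it was 6.29% in mare B, 5.69% in C, 15.5% in M and 7.99% in U. The cyclic library of mare M stood far above the other glandular ones, while its share of P19 (uterocalin, a lipid carrier secreted by the glands) was 0.703%, against 2.0% to 7.28% in the other 7.

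In pregnant luminal epithelium the members took 3.67% in mare B, 3.94% in C, 8.75% in M and 3.02% in U. In cyclic luminal epithelium they took 3.91% in mare B, 1.90% in C, 6.85% in J, 4.12% in M and 2.78% in U. In pregnant stroma, cyclic glandular epithelium and pregnant luminal epithelium the library with the highest share was the one with under 1% ribosomal RNA counts, while the higher cyclic stromal library, that of mare M, had 7.36%. The part of library quality in these shares was not tested.

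**Figure D1:**
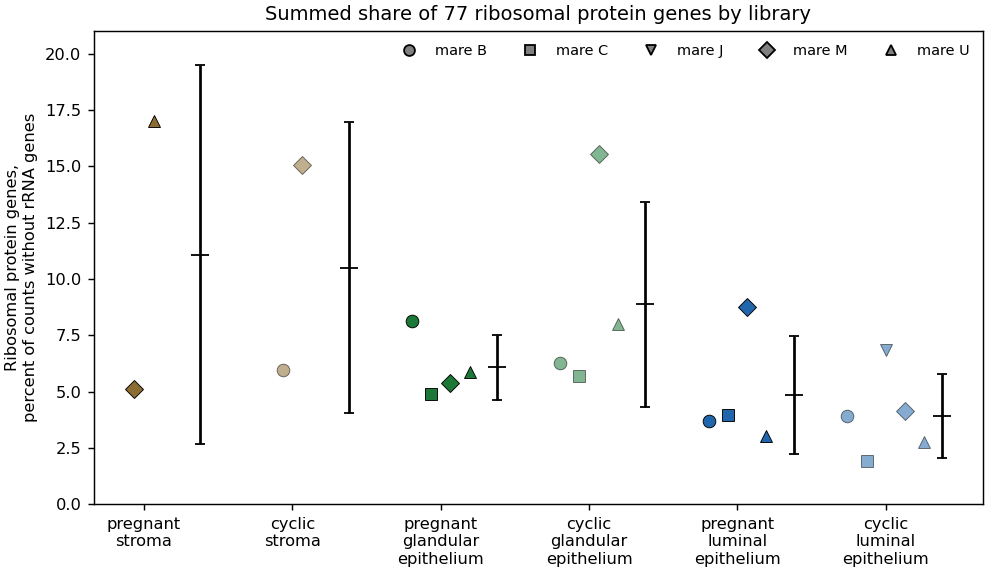
Share of counts without ribosomal RNA genes (percent, vertical axis) taken by the 77 ribosomal protein genes in each library, by group, with mares as symbols; bars at the right of each group are the mean ± SD. Glandular libraries sit between 4.89% and 15.5% and luminal ones between 1.90% and 8.75%, and 1 high library stands out in cyclic glandular epithelium and in pregnant luminal epithelium. In each stromal state 1 library lies far above the only other one.

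**Figure D2:**
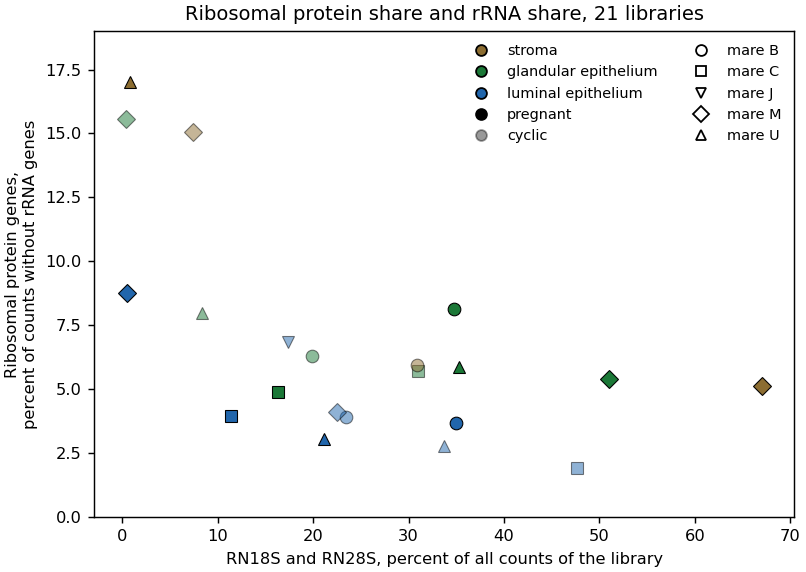
Share of the ribosomal protein genes (percent of counts without ribosomal RNA genes, vertical axis) against the share of RN18S and RN28S (percent of all counts, horizontal axis) in the 21 libraries; colours are compartments, solid symbols pregnant, pale symbols cyclic. The 3 libraries under 1% ribosomal RNA counts hold 8.75%, 15.5% and 17.0% ribosomal protein counts.

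Within a biopsy the glandular share exceeded the luminal one in 7 of 8 cases. In pregnant biopsies the ratio of glandular to luminal share was 2.21 in mare B, 1.24 in C, 0.615 in M and 1.94 in U. In cyclic biopsies it was 1.61 in mare B, 3.0 in C, 3.78 in M and 2.88 in U. The exception, the pregnant biopsy of mare M, set a glandular library with 51.0% ribosomal RNA counts beside a luminal library with 0.453%.

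Single members followed the same direction, and in the comparison of glandular with luminal epithelium the module stood out as a block of higher genes. Counts of the biopsies of each mare were summed per compartment, and the 4 mares with both epithelia in both states were compared, each mare being a block. In edgeR's quasi-likelihood fit, with p adjusted over all genes by the Benjamini-Hochberg method, 18 of the 75 members tested rose in glandular epithelium and 0 fell, at an adjusted p under 0.05. That is 24% of the members, against 3.65% of the 7174 genes tested that were called higher and 3.29% that were called lower. All 75 members had a mean count of at least 20 over the 21 libraries, a level that 4389 genes reached. The 7174 genes thus include many with fewer reads than the members. Shares of all genes, here and below, are not matched for depth, and the part of depth in the difference was not tested. RPLP2, of the stalk that binds elongation factors, and RPL22L1 had too few counts to be tested, with 176 and 210 in all 21 libraries.

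The median log2 fold change of the 75 members was 1.02, against 0.25 for all genes, and 70 members had a positive value. In 50 of the 75 members, or 66.7%, glandular epithelium was higher in each of the 4 mares, against 15.2% of all genes. Both subunits took part, with 11 of 44 large-subunit members called at a median of 0.97 and 7 of 31 small-subunit members called at a median of 1.05. The called members had more reads than the others: a median total of 9088 counts (3143 to 24032) against 3778. The 33 members that were not called and had at least 3182 counts still had a median log2 fold change of 0.90.

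**Figure D3:**
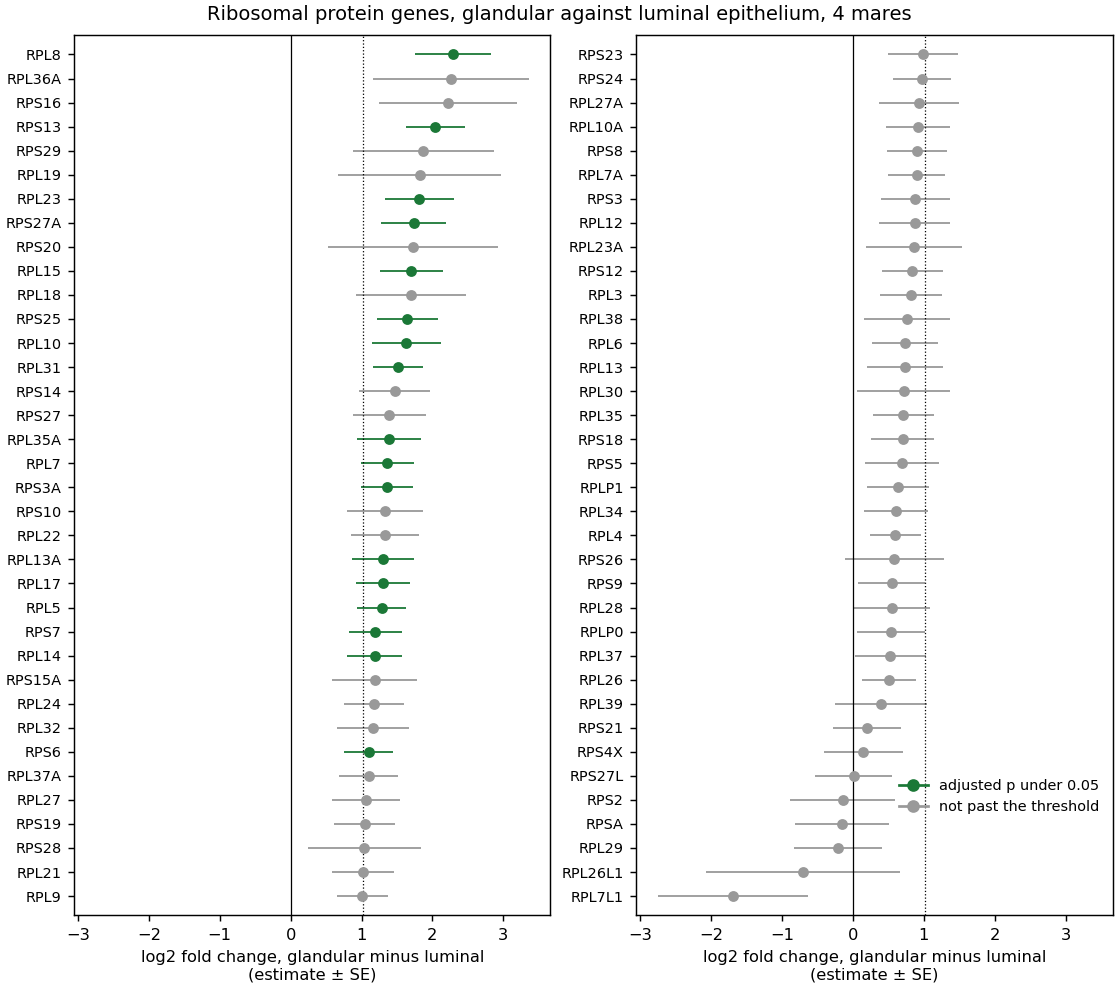
Log2 fold change, glandular minus luminal epithelium (estimate ± SE, horizontal axis), of 72 of the 75 tested ribosomal protein genes, sorted, over 4 mares; green marks an adjusted p under 0.05 and the dotted line the median of the 75, 1.02. The 17 called genes drawn all lie above 0, and 5 genes at the bottom right lie below it.

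RPS13, a small-subunit protein, had 1192, 902, 1518 and 1767 CPM in glandular epithelium of mares B, C, M and U, against 419, 225, 414 and 254 CPM in their luminal epithelium. The lowest glandular value was above the highest luminal one. Its log2 fold change was 2.04 ± 0.42 (SE), with a Benjamini-Hochberg adjusted p of 5.73e-05 in the edgeR test.

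RPL31, a protein of the large subunit, had 3349, 1607, 3592 and 3201 CPM in glandular epithelium of mares B, C, M and U, against 1239, 441, 1727 and 985 CPM in luminal epithelium. Mare C was lowest in both compartments, and its glandular value lay below the luminal value of mare M, so the groups overlapped although every mare had the same direction. The log2 fold change was 1.51 ± 0.36, with an adjusted p of 0.000788 by the edgeR test.

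RPL8 forms part of the centre of the large subunit where peptide bonds are made. It had 591, 259, 725 and 401 CPM in glandular epithelium of mares B, C, M and U, against 96.8, 78.1, 279 and 34.8 CPM in luminal epithelium. All 4 mares agreed in direction, with a log2 fold change of 2.29 ± 0.54 and an adjusted p of 0.000788 by the edgeR test, and the estimate was 5.09 in pregnant biopsies alone and 0.47, not called, in cyclic ones.

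RPS25, a small-subunit protein, had 859, 604, 1849 and 732 CPM in glandular epithelium of mares B, C, M and U, against 432, 207, 420 and 195 CPM in luminal epithelium. RPL15, of the large subunit, had 810, 555, 686 and 1313 CPM in glandular epithelium, against 274, 110, 385 and 313 CPM in luminal epithelium. For both genes the lowest glandular value exceeded the highest luminal one. Their log2 fold changes were 1.65 ± 0.43 and 1.70 ± 0.45, with adjusted p of 0.00374 and 0.00399 by edgeR's quasi-likelihood test.

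**Figure D4:**
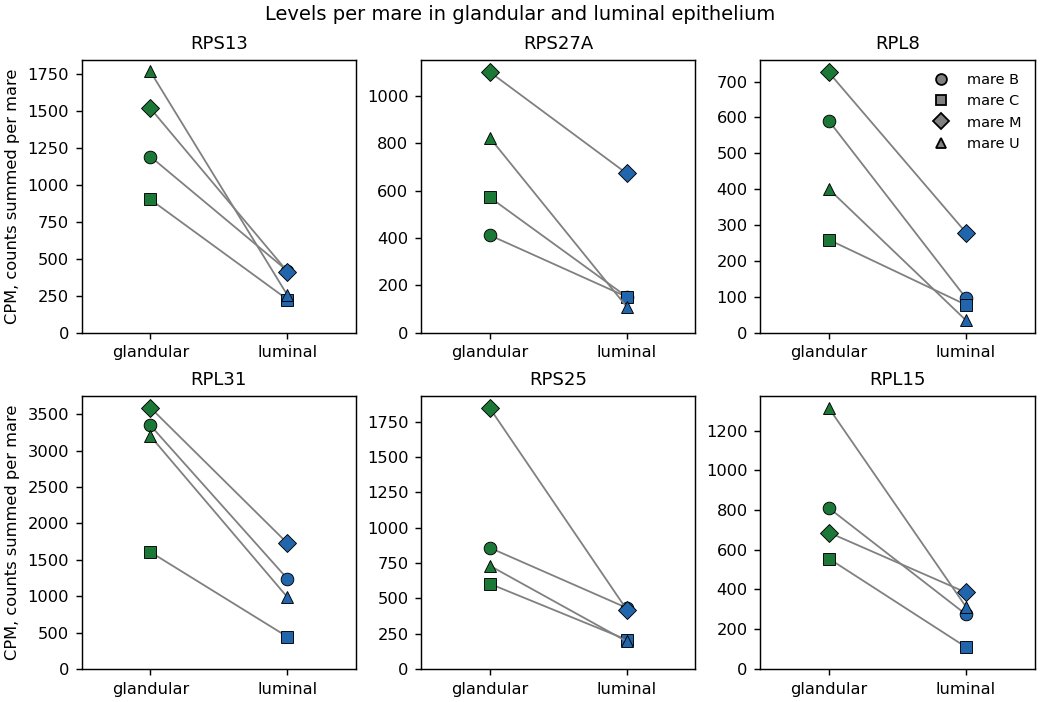
CPM (vertical axis, from 0) of 6 called ribosomal protein genes in glandular and luminal epithelium, with counts summed per mare; lines join the 2 compartments of a mare. Each line falls toward the luminal side, from RPS13 at 902 to 1767 CPM against 225 to 419 CPM to RPL15 at 555 to 1313 CPM against 110 to 385 CPM.

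RPS27A, made as a fusion with ubiquitin, averaged 727 ± 301 CPM in glandular and 272 ± 268 CPM in luminal epithelium (SD, n = 4 mares). RPL23, which in human cells binds the p53 regulator MDM2, averaged 684 ± 347 CPM in glandular and 216 ± 146 CPM in luminal epithelium. RPL5, which carries a small ribosomal RNA and also binds MDM2, averaged 3007 ± 1415 CPM in glandular and 1320 ± 898 CPM in luminal epithelium. These 3 were called with log2 fold changes of 1.73, 1.81 and 1.28, and RPL7, of the large subunit, with 1.37. Further called members were RPS3A, RPL17, RPL10 (which joins the large subunit late), RPS7, RPS6 (the substrate of the S6 kinases), RPL35A, RPL14 and RPL13A, at log2 fold changes of 1.10 to 1.63.

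The direction did not rest on 1 animal, whereas the number of calls did depend on the set of animals. Without mare M, whose libraries included 2 of the 3 with little ribosomal RNA, 21 members were called, 17 of them among the 18. Without mare B or mare C 6 members were called in each case, and without mare U 10. Cyclic biopsies alone gave 9 calls and a median log2 fold change of 1.57, and pregnant biopsies alone gave 1 call, RPL8, and 0.62, where all genes had a median of 0.57. The 6 calls that remained with single libraries and the biopsy as block, and the 8 without the mare as block, were all among the 18. RPS13 and RPL31 were called in 11 of 12 alternative settings, and missed the threshold in pregnant biopsies alone.

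The fibroblast marker sums given above, and the leukocyte marker sums of 9.02 to 170 CPM in glandular epithelium against 44.2 to 558 CPM in luminal epithelium, moved with this comparison. Their part in the result was not tested. Ribosomal RNA counts were 24.6% ± 16.5 in glandular and 23.6% ± 13.9 in luminal epithelium (SD, n = 8 and 9 libraries). By state the order differed. In cyclic libraries they were 14.9% ± 13.4 in glandular and 28.9% ± 12.0 in luminal epithelium (n = 4 and 5). In pregnant libraries they were 34.3% ± 14.2 in glandular and 17.0% ± 14.7 in luminal epithelium (n = 4 each). The part of this difference in the result was not tested.

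Counted by biopsy, the members split unevenly. In all 8 biopsies 6 of the 75 tested members (8%) were higher in glandular epithelium, among them RPL13A, RPL15, RPL23A, RPL35A and RPL36A, against 2.69% of the 7174 genes. In 7 biopsies 23 members (30.7%) were higher, against 6.23% of genes, and in 6 biopsies 28 members (37.3%), against 12%. In the pregnant biopsy of mare M 38 of 77 members were higher in glandular epithelium, whereas 75.6% of all genes were, and in that of mare C 48 of 77, whereas 66.3% of all genes were. In the cyclic biopsy of mare C 73 of 77 members were higher, whereas 35.6% of all genes were.

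RPL7L1, a relative of RPL7 that works in the assembly of the large subunit, ran the other way. It had 59.3, 18.4, 48.9 and 5.96 CPM in glandular epithelium of mares B, C, M and U, against 206, 90.2, 70.3 and 26.6 CPM in luminal epithelium. It was the only tested member that was lower in glandular epithelium in each mare, 1.33% of the 75 against 10.7% of all genes, and it was lower in each of the 8 biopsies, but its log2 fold change of -1.69 ± 1.06 was not called, with an adjusted p of 0.505 by edgeR's test. Of the reads on RPL7 and RPL7L1 together, RPL7L1 took 1.66% in glandular epithelium (exact 95% interval 1.43% to 1.92%) and 10.8% in luminal epithelium (9.88% to 11.9%). Its share per library ranged from 0 to 6.27% in glandular and from 1.93% to 27.3% in luminal libraries, and it was lower in glandular epithelium in every biopsy.

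The other paralogs gave no such order. RPS27L, a p53-regulated relative of RPS27 in human cells, took 11.6% of the reads of the pair in stroma, 29.7% in glandular and 45.5% in luminal epithelium. Its share per library ran from 7.32% to 81.4% in glandular and from 2.51% to 97.7% in luminal libraries, which overlap over most of their range. RPL26L1, a close copy of RPL26, took 10.3% in stroma, 2.68% in glandular and 6.14% in luminal epithelium, and had a log2 fold change of -0.70 ± 1.37 between glandular and luminal epithelium, with an adjusted p of 0.933 in the edgeR test. RPL22L1, a relative of RPL22, took 0.265%, 2.07% and 12.2% in stroma, glandular and luminal epithelium, and 0 to 90.4% in single luminal libraries. The binomial intervals pool the reads of all libraries of a compartment and leave out the spread between libraries and mares. They treat reads as independent, and the reads carry no molecular identifiers, so the intervals may be too narrow even for counting error. Ribosomal protein genes have many processed pseudogenes, so reads shared with near-identical copies make the count of any single member uncertain.

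Beside RPL7L1 and RPL26L1, the members without a positive value were RPL29 at -0.21, RPSA at -0.15 and RPS2 at -0.15, all far from the threshold. RPSA, the small-subunit protein also known as a laminin receptor precursor, had 291, 142, 286 and 47.7 CPM in glandular epithelium of mares B, C, M and U, against 76.0, 266, 205 and 202 CPM in luminal epithelium, with 2 mares in each direction. The stalk proteins RPLP0 and RPLP1 had log2 fold changes of 0.54 ± 0.48 and 0.64 ± 0.43. RPS19, the member most often mutated in human Diamond-Blackfan anaemia, had 1.05 ± 0.43, RPL3 had 0.82 ± 0.44 and RPL23A 0.86 ± 0.68, none of them called. RPS14 missed the threshold by the smallest margin, at 1.47 ± 0.50 with an adjusted p of 0.050 by edgeR's test.

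Other genes of the translation apparatus were read from fixed lists. Of 20 other TOP messenger RNAs of translation, 5 rose in glandular over luminal epithelium and 0 fell, where 3.65% of all genes were called higher and 3.29% lower. The median log2 fold change of the list was 0.82, against 0.25 for all genes. EEF1A1, the factor that delivers aminoacyl-tRNA, rose by 1.19 ± 0.30, and EEF1B2 and EEF1D, of the complex that recharges it, rose by 1.87 ± 0.39 and 1.95 ± 0.64. The initiation factor subunit EIF3H rose by 2.40 ± 0.50 and the poly(A)-binding protein PABPC1 by 1.32 ± 0.40. Of 4 ribosomal or ribosome-bound proteins whose symbols fall outside the rule, the scaffold RACK1 rose by 1.53 ± 0.46.

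Of 26 tested ribosome biogenesis factors 0 were called in either direction (median 0.13), and likewise 0 of 13 regulators of the mTOR, MYC and LARP1 group (median -0.06). In lists of this size such counts lie near the 3.65% and 3.29% of all genes. Of 30 mitochondrial ribosomal proteins 1 was called, MRPS22, at 5.35 ± 1.74, which is also near the 3.65% of all genes called higher. Over libraries MRPS22 had 142 ± 306 CPM in glandular and 9.95 ± 26.3 CPM in luminal epithelium (SD, n = 8 and 9). The median of that list was 0.96, beside 1.02 for the cytosolic members. Only 5 mitochondrial ribosomal protein genes had enough counts, a mean of at least 20, for the correlations given below, so most of these fold changes rest on few reads. In every other comparison described here, 0 members of these 5 lists were called by the edgeR test.

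Stroma was set against luminal epithelium in mares B, M and U, on luminal libraries that also enter the previous comparison. In the edgeR test 0 of 75 members were called at a Benjamini-Hochberg adjusted p under 0.05, against 1.74% of the 3512 genes tested. By DESeq2 the number was also 0, and 7 members (9.33%) were higher in stroma at an unadjusted p under 0.05, against 3.59% of genes. The median log2 fold change of the members was 1.13, against -0.60 for all genes, and 34 members (45.3%) were higher in stroma in each of the 3 mares, against 13% of genes. Without mare U, whose pregnant stromal library had 0.820% ribosomal RNA counts, the members' median was 0.61 and that of all genes -0.50.

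The smallest p belonged to RPL37A, a large-subunit protein, with 1943, 2259 and 4221 CPM in stroma of mares B, M and U, against 740, 656 and 325 CPM in luminal epithelium. The groups did not overlap, and how often this held over all genes was not computed. Its log2 fold change was 2.26 ± 0.88, with an adjusted p of 0.245 by edgeR's test. RPLP1 had 1.91 ± 0.86. In the other direction RPS27L had -2.04 ± 1.81, RPS26 -0.94 ± 1.79 and RPL28 -0.41 ± 1.40.

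Between stroma and glandular epithelium, in the same mares and on shared stromal libraries, 0 of 75 members were called by edgeR, against 1.3% of 4830 genes, and 0 by DESeq2. A single member, RPL8, had an unadjusted p under 0.05, being lower in stroma (1.33%, against 6.71% of genes). The members' median was 0.18 and that of all genes -1.07. Without mare U these medians were -0.45 and -1.29, and in cyclic biopsies alone -0.62 and -0.47. The ratio of stromal to glandular share was 0.953 in the pregnant biopsy of mare M and 2.90 in that of mare U, against 0.945 in the cyclic biopsy of mare B and 0.969 in that of mare M. The stromal share was thus the higher one in the pregnant biopsy of mare U alone. In the cyclic biopsy of mare M 22 of 74 members were higher in stroma, whereas 37.5% of all genes were. RPL8 had 295, 262 and 3.77 CPM in stroma of mares B, M and U, against 499, 694 and 665 CPM in glandular epithelium, and a log2 fold change of -2.45 ± 1.23 with an adjusted p of 0.494 by the edgeR test. The stromal value of mare U was 1 read. RPLP1 and RPS19 had higher values in stroma, at 1.44 ± 0.88 and 1.11 ± 0.88, which were not called.

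Day 12 pregnancy was not accompanied by a called change of any member. In luminal epithelium 0 of 73 members were called in the edgeR test at a Benjamini-Hochberg adjusted p under 0.05, against 0.437% of 4344 genes, and 0 by DESeq2. At an unadjusted p under 0.05, 6 members (8.22%) were higher and 1 (1.37%) lower in pregnant libraries, against 3.55% and 4.26% of genes. The median log2 fold change was 0.31, against -0.04 for all genes, and -0.15 without the pregnant library of mare M.

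RPL9, of the large subunit, had 1105, 2177, 6507 and 875 CPM in pregnant luminal epithelium of mares B, C, M and U, against 688, 551, 1363, 1106 and 580 CPM in cyclic luminal epithelium of mares B, C, J, M and U. The pregnant library of mare M was the highest of all, and the groups overlapped. The log2 fold change was 1.64 ± 0.57, with an adjusted p of 0.263 by edgeR's test. RPS21 and RPS26, of the small subunit, had 1.74 ± 0.73 and 2.28 ± 1.02.

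RPL8 had 108, 10.9, 12.8 and 9.30 CPM in pregnant luminal epithelium of mares B, C, M and U, against 117, 129, 292, 492 and 59.0 CPM in the cyclic libraries of mares B, C, J, M and U. The pregnant values were 33, 4, 2 and 3 reads, so those of mares C, M and U lay near the floor of 3 counts. RPL8 was lower in pregnancy in each of the 4 mares with both states, at a log2 fold change of -2.60 ± 1.31 with an adjusted p of 0.627 by edgeR's test. RPL10 and RPS10 came next in that direction at -1.54 ± 0.90 and -1.42 ± 0.99.

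In glandular epithelium 0 of 74 members were called by edgeR, against 0.0623% of 4816 genes, and 0 by DESeq2. At an unadjusted p under 0.05, 15 members (20.3%) were lower in pregnancy, against 5.4% of genes, and 2 (2.7%) were higher, against 1.87%. The median log2 fold change was -0.75, against 0.07 for all genes. Without the cyclic library of mare M, the one with 0.351% ribosomal RNA counts, the median was 0.015 and 2 members were lower at that p. The same mares gave both states here, a pairing that the main fit leaves out. With the mare as block the median was -0.43, with 2 members lower and 2 higher at that p.

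RPL34, a large-subunit protein, had 454, 268, 189 and 123 CPM in pregnant glandular epithelium of mares B, C, M and U, against 530, 694, 3150 and 613 CPM in cyclic glandular epithelium. All pregnant values lay below all cyclic ones, and the cyclic value of mare M stood far above the other cyclic values. The log2 fold change was -2.27 ± 0.79, with an adjusted p of 0.358 by edgeR's test. RPS26 and RPS27 were the other 2 members without overlap, so that 3 members (4.05%) were lower in every pregnant library, against 1.04% of genes.

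RPS27 had 481, 239, 474 and 283 CPM in pregnant glandular epithelium of mares B, C, M and U, against 501, 588, 626 and 662 CPM in the cyclic libraries. RPS27L had 288, 105, 37.4 and 75.2 CPM in pregnant glandular epithelium, against 130, 55.1, 2741 and 54.8 CPM in cyclic glandular epithelium, and RPL32 of the large subunit 549, 289, 218 and 226 CPM, against 396, 499, 4678 and 243 CPM. For RPS27L and RPL32 the cyclic library of mare M alone was far above the rest. RPL8 was higher in pregnant glandular epithelium, with 732, 265, 1038 and 740 CPM against 518, 222, 32.9 and 89.8 CPM in cyclic libraries of the same mares, at 1.67 ± 0.82 and an adjusted p of 0.668 by edgeR's test. The cyclic value of mare M was 5 reads. RPL18, of the large subunit, had 1.76 ± 1.00.

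In stroma, with 2 libraries a state, 0 of 74 members and 0% of the 2212 genes were called by edgeR, and 0 members by DESeq2. At an unadjusted p under 0.05 there were 2 members, both higher in pregnancy (2.7%, against 2.94% of genes). One of them, RPL23A of the large subunit, had 505 and 1032 CPM in pregnant stroma of mares M and U, against 70.1 and 12.3 CPM in cyclic stroma of mares B and M. It had an adjusted p of 0.999 by the edgeR test, at a log2 fold change of 4.19 ± 1.91. The members' median was 0.35 and that of all genes 0.26.

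The pregnancy effects of the 2 epithelia were compared with each other in the 16 libraries of the 4 mares with both, and biopsies were the blocks. For this difference, glandular minus luminal, 0 of 75 members were called by edgeR's quasi-likelihood test, against 0.0145% of 6884 genes. At an unadjusted p under 0.05, 9 members (12%) had a lower and 2 (2.67%) a higher effect in glandular epithelium, against 0.915% and 4.62% of genes, and DESeq2 called 0. The members' median was -0.95 and that of all genes 1.28. The ratio of pregnant to cyclic share was 1.29, 0.860, 0.346 and 0.735 in glandular epithelium of mares B, C, M and U. In luminal epithelium of these mares it was 0.940, 2.08, 2.13 and 1.09. Mare M's cyclic glandular and pregnant luminal libraries had 0.351% and 0.453% ribosomal RNA counts. The part of the ribosomal RNA share in the difference was not tested. The fit without the biopsy as block called 1 member, RPL9, at -3.71 with an adjusted p of 0.0256, whereas with the block RPL9 had -2.47 ± 0.88 and an adjusted p of 0.867 by edgeR's test. RPL8 had 4.71 ± 1.54 and RPS26 -4.89 ± 1.95, both with the same adjusted p. Both rest in part on few reads. RPL8 had 4, 2 and 3 in pregnant luminal libraries of mares C, M and U, and RPS26 had 2 in each cyclic luminal library of mares M and U.

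Across the 21 libraries the members varied together only in part. Over the 75 members with a mean count of at least 20, the median Pearson correlation of 2 members was 0.28, against 0.086 for pairs of all genes. After removing group means these values were 0.18 and 0.053. Libraries share depth and composition, so these are descriptions and not tests. A member's correlation with the median of the other members ran from -0.55 to 0.92, with a median of 0.63.

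RPS6, RPL31, RPS3A, RPL5 and RPS7 followed the module most closely, at 0.92, 0.91, 0.90, 0.89 and 0.89. RPL29, RPS14, RPL7L1 and RPSA ran against it, at -0.55, -0.38, -0.34 and -0.19. Among members with enough counts, the SD of the log2 level over libraries was among the largest for RPS26, RPL8, RPS14 and RPS2, at 2.20, 2.11, 2.0 and 2.0, and smallest for RPL7A at 0.78. The members with the highest CPM were RPS6, RPL5, RPL31, RPL9, RPL4, RPL17, RPS7 and RPL7, and those with the lowest were RPLP2, RPL22L1, RPL19, RPS20 and RPL7L1. These levels are not corrected for transcript length and give no order of abundance between genes.

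**Figure D5:**
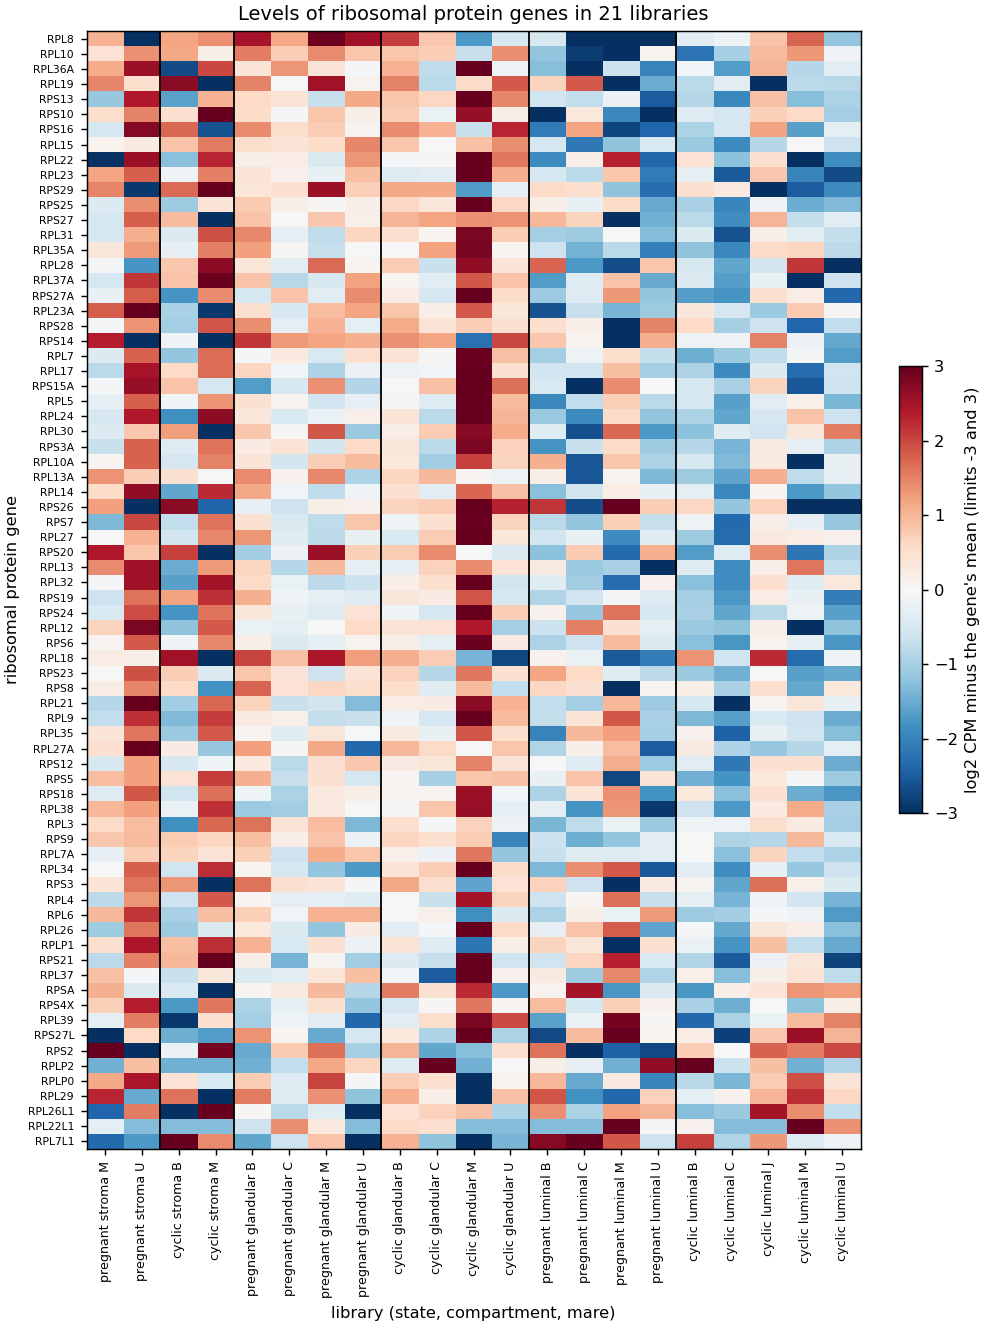
Log2 CPM of 74 of the 77 ribosomal protein genes (rows, sorted by glandular minus luminal mean) in 21 libraries (columns, by compartment, state and mare), centred per gene; red is above and blue below the gene's mean. The cyclic glandular library of mare M, the pregnant stromal library of mare U and the cyclic stromal library of mare M are red for most genes, with median centred values of 2.06, 1.60 and 1.45.

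The genes outside the module whose levels were most like its median profile over the 21 libraries, by Pearson correlation, were led by a gene without a symbol at 0.85. It was followed by EEF1A1 at 0.85, EEF1B2 at 0.84 and TPT1, itself a TOP messenger RNA, at 0.82. BTF3, which binds nascent chains at the ribosome, had 0.77, CNBP 0.73, SRP19 0.72 and PEBP1 0.72. Over all 4314 genes compared, the median correlation with the profile was -0.17. The median was 0.32 for the 20 other TOP messenger RNAs, 0.075 for 12 biogenesis factors, -0.25 for 7 regulators and -0.14 for 5 mitochondrial ribosomal proteins.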

How the data were processed

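Messenger RNA of captured horse endometrium was amplified with a single-cell kit from 1 ng of RNA and sequenced as 125 bp single-end reads, per the labels' protocols, which add that some libraries, not named, had extra amplification. Per the submitters' processing notes, the tools were Trimmomatic 0.32.2 for trimming and HISAT2 2.0.3 for alignment. What counted the reads, with which strand setting and on which build, is not stated in these sources. Raw read counts deposited by the authors cover 24942 gene IDs, of which 21420 matched a symbol in the RefSeq gene table. The authors also deposited signal tables, counts divided by a constant per library, used for membership and as an alternative. No sequences were available, so none are printed.

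The counts were tested with edgeR 4.0.16 in R 4.3.3 (TMM scaling, filterByExpr with a minimum count of 10, quasi-likelihood F-test, two-sided, Benjamini-Hochberg over all genes), checked on simulated data. CPM values are scaled within each comparison. SE denotes the log2 fold change divided by the square root of F. Levels over 21 libraries used a prior count of 2. Compartments were compared on counts summed per mare with the mare as block, since letters name animals. States were compared without block. Mares are unequally shared between the states in luminal epithelium and stroma, whereas glandular epithelium has the same mares in both. Alternatives were RLE factors, TMM without ribosomal RNA genes, no filter, DESeq2 1.42.0, limma 3.58.1 on log2(signal + 1), other blocks, single states and leaving out each library or mare. Depth was 136259 to 1467510 counts; a floor of 3 counts limits low members.

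Members and lists were chosen with earlier results of these data known. Named genes are, per comparison, the called members (the 10 with the smallest p) and the 3 with the smallest p in each direction, besides paralogs, chosen anchors, extremes of level and spread, and the 10 most similar other genes; other members named beside a count were picked after their values were seen. Of the members and lists, 4 genes enter the counts and medians and are not reported here by name.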

Additional observations from a re-analysis of the deposited data

Results flagged for a closer look

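In 54 groups of 4 or 5 values, 7 had a highest or lowest value that stood apart from the others by Dixon's test. For independent, normally distributed values chance gives about 1 in 20. The groups share libraries and CPM values need not be normal, so the flags cannot be weighed against that rate. The share of ribosomal protein genes in pregnant luminal epithelium was 8.75% in mare M, far above the other 3 mares. In luminal epithelium summed per mare, mare M stood apart for RPS27A with 672 CPM and for RPL5 with 2656 CPM. In cyclic glandular epithelium the library of mare M stood apart for RPL34 with 3150 CPM, RPS27L with 2741 CPM and RPL32 with 4678 CPM. The pregnant luminal and cyclic glandular libraries of mare M had under 1% ribosomal RNA counts. The luminal sums of mare M also hold its cyclic library, which had 22.5% ribosomal RNA counts. That cyclic library gave 677 reads of RPL5 and 142 of RPS27A, against 607 and 183 in the pregnant one. In pregnant luminal epithelium RPL8 stood apart in mare B, with 108 CPM against 9.30 to 12.8 CPM in the other 3. The values of those 3, mares C, M and U, were 4, 2 and 3 reads.

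Of 72 members checked, 2 (2.78%) had opposite directions of pregnant minus cyclic values in the 2 epithelia in all 4 mares of each, against 1.43% of the 3353 genes checked. RPL8 was higher in pregnant than in cyclic glandular epithelium and lower in pregnant than in cyclic luminal epithelium, with a difference of the effects of 4.71 on the log2 scale (unadjusted p = 0.00223, adjusted p = 0.867 in the edgeR test). Its pregnant luminal values in mares C, M and U rest on 4, 2 and 3 reads. RPS4X, a small-subunit protein encoded on the X chromosome in mammals, went the other way, with a difference of -1.93 (unadjusted p = 0.171, adjusted p = 0.888 by the same edgeR test). Neither passed the adjusted threshold.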

How the results depend on the processing

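The count of 18 members called higher in glandular than in luminal epithelium was 13 with RLE factors, 20 with TMM without ribosomal RNA genes, 15 without a filter, 13 with DESeq2 (10 shared), 6 with single libraries and the biopsy as block, 8 with no replicate block, 9 in cyclic and 1 in pregnant biopsies alone, and 6 to 21 without each mare. The cause of these moves was not tested. The members' median there stayed between 0.62 and 1.57. The lower value, from pregnant biopsies alone, was close to the median of all genes there, given above. In pregnancy the replicate block left 0 members called in both epithelia; no paired analysis was possible for stroma because its states share mare M alone. Leaving out single libraries moved the median pregnancy effect in glandular epithelium between -0.83 and 0.015 and in stroma between -0.54 and 1.11. The median for stroma minus glandular epithelium was -0.62 in cyclic biopsies alone, and the difference of pregnancy effects had 1 call with no replicate block. The share in pregnant glandular epithelium, 6.07%, was 3.96% of all counts and 4.52% of the TMM-scaled library size. The members' summed deposited signal there was 4.51 in units of 10000, which is no percentage, since those tables are scaled by a constant per library and not to a common total. RLE factors moved the median of all genes from -0.04 to 0.11 (luminal), 0.07 to -0.05 (glandular) and 0.26 to 0.02 (stroma) for pregnancy, -1.07 to -0.79 for stroma minus glandular epithelium and 1.28 to 0.98 for the difference of effects.

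Signs turned, all uncalled, for RPS27L in glandular pregnancy (-3.14 to 0.65 leaving out single libraries, 0.65 without cyclic mare M), for RPL26L1 (0.78, cyclic biopsies) and RPL29 (0.082, biopsy block; 0.62, pregnant biopsies) in glandular minus luminal epithelium, for RPS26 (0.60, no block; 1.62, cyclic biopsies; -3.28 to 0.74 leaving out mares, 0.74 without mare U) and RPL28 (0.65, biopsy block; 0.97, cyclic biopsies; -1.41 to 0.58 leaving out mares, 0.58 without mare U) in stroma minus luminal epithelium, and for RPL8 (1.37, cyclic biopsies) in stroma minus glandular epithelium. Stroma had 2 libraries a state, and which differences of members this depth can show was not measured.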
